A study of Rattus norvegicus with 8 samples.

Results

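Transporters that carry drugs, bile constituents, hormones and lipids across liver cell membranes were examined in livers of male rats of the outbred Sprague-Dawley strain, whose drink for 4 weeks was sterilized distilled water (control) or hydrogen water. The set held the ATP-binding cassette (ABC) proteins, the organic anion transporting polypeptides (OATP, gene symbols Slco), the organic ion carriers of the SLC22 family and the multidrug extruder Slc47a1. Members were chosen by gene symbol alone, with 1 probe set per gene, the one with the highest mean signal over the 8 arrays. Abcb11, Abca1, Abcg5 and Abcg8 were left out as genes of bile acid and cholesterol handling. This gave 63 of the 14217 genes that had a probe set with a single symbol, 29 on the uptake side (Slco and Slc22a) and 34 on the export side (ABC and Slc47a1). Hydrogen water is drinking water that holds dissolved molecular hydrogen, here 0.7 mM according to the study's description, and the sample labels call it hydrogen-saturated. Age at sampling was 8 weeks in both groups. Of the 8 animals that the study held in each group, the data cover 4 arrays per group. The labels do not tie an array to an animal or say whether RNA was pooled, so p-values measure only the spread between these arrays, and in whole liver RNA fewer cells of a type and less RNA per cell cannot be told apart.

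Hepatocytes take organic anions and cations from blood through OATP and SLC22 carriers on the sinusoidal membrane, and hand them, often after conjugation, to ATP-driven pumps. Pumps on the canalicular membrane send conjugates, drugs and phospholipid into bile, and others on the sinusoidal side return conjugates to blood. Not all ABC genes encode exporters of this kind: some serve mitochondria, peroxisomes or lysosomes, some act on ribosomes, and Abcc8 and Abcc9 are the regulatory subunits of ATP-sensitive potassium channels. Several uptake and export genes of rodent liver are known targets of the nuclear receptors PXR and CAR.

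The deposited signals had no common scale. Array medians ran from 17.2 to 26.8, and the 2% trimmed mean was 116 ± 18.8 (SD, n = 4) on control arrays against 92.0 ± 10.4 (SD, n = 4) on hydrogen water arrays, a difference with p = 0.114 in an exact two-sided permutation test. All values below are therefore log2(signal + 2.05) after quantile normalization, and differences are hydrogen water minus control. Gapdh, read at both transcript ends to gauge RNA quality, had a log2 excess of the 3′ end of 0.22 ± 0.10 (SD, n = 4) in control livers against 0.38 ± 0.08 (SD, n = 4) in the other group, with p = 0.0571 in an exact two-sided permutation test. The part of RNA quality in the results was not tested. Hepatocyte markers were bright in these liver samples, with mean log2 signals of 13.43 for Alb, 12.95 for Ttr and 10.64 for Asgr1. All 5 of 5 measured hepatocyte markers passed the signal filter of 4.42, and none passed the test of the groups. Passing the filter alone says little of tissue, since 15521 of 31042 probe sets did. Of 4 measured bile duct markers, Krt7 and Spp1 were below the filter, while Krt19 and Epcam were above it, at 4.48 and 6.69. The erythroid marker Hbb, at 11.88, and the exocrine pancreas marker Cela1, at 7.85, were also above it. Prss1 and Cpa1, also pancreatic, and the kidney markers Umod, Kap and Slc12a1 were all below the filter. No tested marker of the 8 cell types or tissues listed passed in limma. The endothelial markers Stab2 and Lyve1 had an unadjusted p under 0.05, with differences of 0.42 ± 0.13 and 0.38 ± 0.13 (SE), while Pecam1, Kdr and Vwf, also endothelial, differed by −0.04, −0.10 and −0.16.

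No transporter passed the test of hydrogen water against control. Of the 63 genes, 39 passed the signal filter, which kept probe sets with a mean log2 signal of 4.42 or more, and 0 of these 39 had an adjusted p of 0.05 or less in limma, where 0.818% of all 15521 tested probe sets did. A single transporter, the lipid transporter Abca8a, had an unadjusted p under 0.05, against 12.5% of all tested probe sets. Abca8a was also the one member whose groups did not overlap, against 7.48% of all tested probe sets. Differences among the 39 ran from −0.43 to 0.36, with a median of −0.03 against 0.00 over all tested probe sets. A size under 0.25 was found at 33 of the 39 and at 11377 of all 15521 tested probe sets. The 95% interval of the difference lay within a 1.5-fold change in either direction for 27 of the 39, and for 61.8% of all tested probe sets. The spread between arrays was of ordinary size, with a median within-group SD of 0.20 over the 39 and 0.22 over all tested probe sets.

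**Figure D1:**
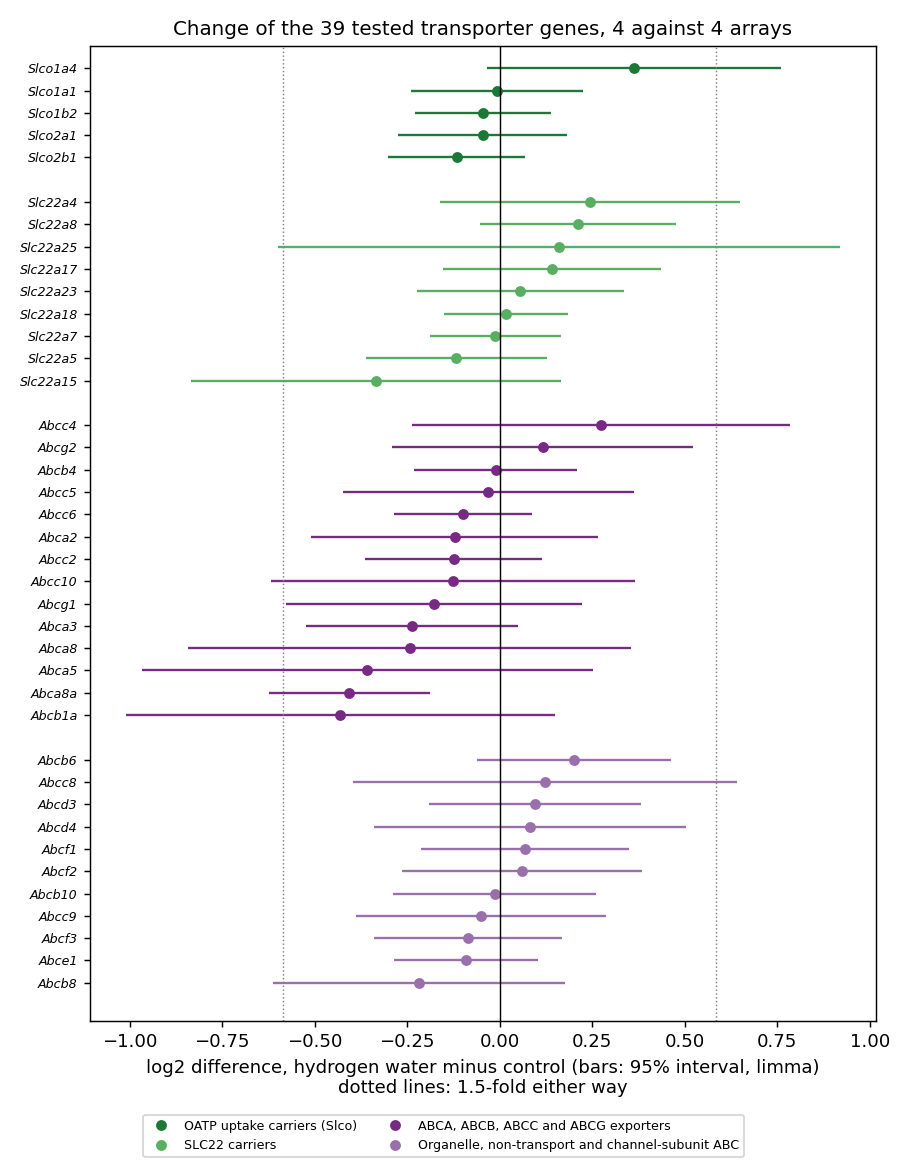
Log2 difference, hydrogen water minus control, of each of the 39 tested transporter genes (points) with its 95% interval from limma (bars). There were 4 arrays per group, and genes are ordered by difference within 4 parts of the set. All intervals except that of Abca8a cross 0, and 27 of the 39 lie between the dotted lines that mark 1.5-fold.

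Among the OATP carriers, which exchange bulky organic anions, bile acids, steroid conjugates and drugs, 5 of 13 genes passed the filter. Slco1a4, the sinusoidal carrier Oatp1a4 that takes up digoxin among other substrates, had the largest difference. Its log2 signal was 11.84, 10.79, 10.93 and 11.21 on control arrays 1 to 4, and 11.50, 11.52, 11.62 and 11.57 on hydrogen water arrays 1 to 4. Control array 1 lay above all hydrogen water arrays and the other 3 controls lay below them, so the groups overlapped. The means were 11.19 ± 0.46 and 11.55 ± 0.05 (SD, n = 4 each), a difference of 0.36 ± 0.18 (SE), or 1.29-fold, with a limma adjusted p of 0.451. A second Slco1a4 probe set repeated the pattern, at 10.36, 9.15, 9.36 and 9.76 in controls and 10.09, 10.04, 10.04 and 10.05 with hydrogen water, a difference of 0.40 ± 0.21 (SE; limma adjusted p = 0.481). Control array 1 decided the call: without it the first probe set differed by 0.59 and passed (limma adjusted p = 0.0346), while its adjusted p in the other 21 alternatives lay between 0.216 and 0.698.

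The narrow band of Slco1a4 with hydrogen water was the widest contrast of spread among the tested members. Its control SD was 9.15 times the hydrogen water SD, and that of the carnitine carrier Slc22a5 was 8.41 times. A ratio of 5 or more was found at 2 of 39 members and at 1.29% of all tested probe sets. Spread did not differ in direction over the set as a whole: the SD was smaller with hydrogen water at 21 of 39 members (53.8%) and at 49.0% of all tested probe sets. These SD values were singled out after they were seen and have no test.

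The other OATP genes stood close to 0. Slco1b2, the liver-specific carrier that corresponds to human OATP1B1 and OATP1B3, read 11.08, 11.01, 11.05 and 11.19 in controls and 10.86, 11.17, 10.96 and 11.16 with hydrogen water. Its groups overlapped and its difference was −0.05 (95% interval −0.23 to 0.14). A second Slco1b2 probe set differed by 0.04, and the sign of the first turned under spike-in scaling. Slco1a1, another sinusoidal carrier of organic anions, differed by −0.01 (95% interval −0.24 to 0.23). The prostaglandin carrier Slco2a1 differed by −0.05 ± 0.10 (SE), with 0.03 at a second probe set, and the signs of Slco1a1 and Slco2a1 turned under trimmed mean and spike-in scaling. Slco2b1, a carrier of steroid sulphates and drugs, differed by −0.12 ± 0.08 and, at a second probe set, by −0.15 ± 0.12 (SE), in both cases without passing.

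Of the 17 SLC22 and SLC47 genes, 9 passed the filter, all SLC22. Slc22a8, the organic anion carrier Oat3, read 10.84, 10.47, 10.40 and 10.94 on control arrays 1 to 4 and 10.73, 10.99, 10.84 and 10.95 on hydrogen water arrays 1 to 4. Control arrays 2 and 3 were low, and control arrays 1 and 4 lay within the hydrogen water range, as they did for Slc22a4. The difference was 0.21 ± 0.12 (SE; limma adjusted p = 0.533). At a second Slc22a8 probe set the controls read 8.10, 7.85, 7.50 and 8.34 and the hydrogen water arrays 8.20, 8.69, 8.45 and 8.41. That difference, 0.50 ± 0.17 (SE), had an unadjusted p of 0.0147 and did not pass (limma adjusted p = 0.245). Without normalization between arrays the sign of the first Slc22a8 probe set turned, to −0.07.

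Slc22a4, the ergothioneine carrier Octn1, differed by 0.24 ± 0.18 (SE), from 5.69, 5.10, 5.07 and 5.63 in controls to 5.65, 5.64, 5.43 and 5.75 with hydrogen water. Slc22a5, the carnitine carrier Octn2, is encoded close by, with Slc22a21, which was below the filter, between them in RefSeq's gene order. Slc22a5 read 7.98, 8.33, 8.16 and 8.47 in controls and 8.10, 8.11, 8.16 and 8.10 with hydrogen water, a difference of −0.12 ± 0.11 (SE). Slc22a7, the organic anion carrier Oat2, differed by −0.01 (95% interval −0.19 to 0.16), and its sign turned under trimmed mean and spike-in scaling. Slc22a17, a receptor for lipocalin-2, differed by 0.14 ± 0.13, and the carrier Slc22a15 by −0.33 ± 0.23 (SE). Slc22a18 differed by 0.02, Slc22a23 by 0.05 and Slc22a25 by 0.16, the last with the widest spread among the 39 tested members, an SD of 0.58 in controls and 0.62 with hydrogen water. Without normalization the signs of Slc22a4 and Slc22a17 also turned. None of the 9 passed, and their limma adjusted p-values ran upward from 0.533.

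**Figure D2:**
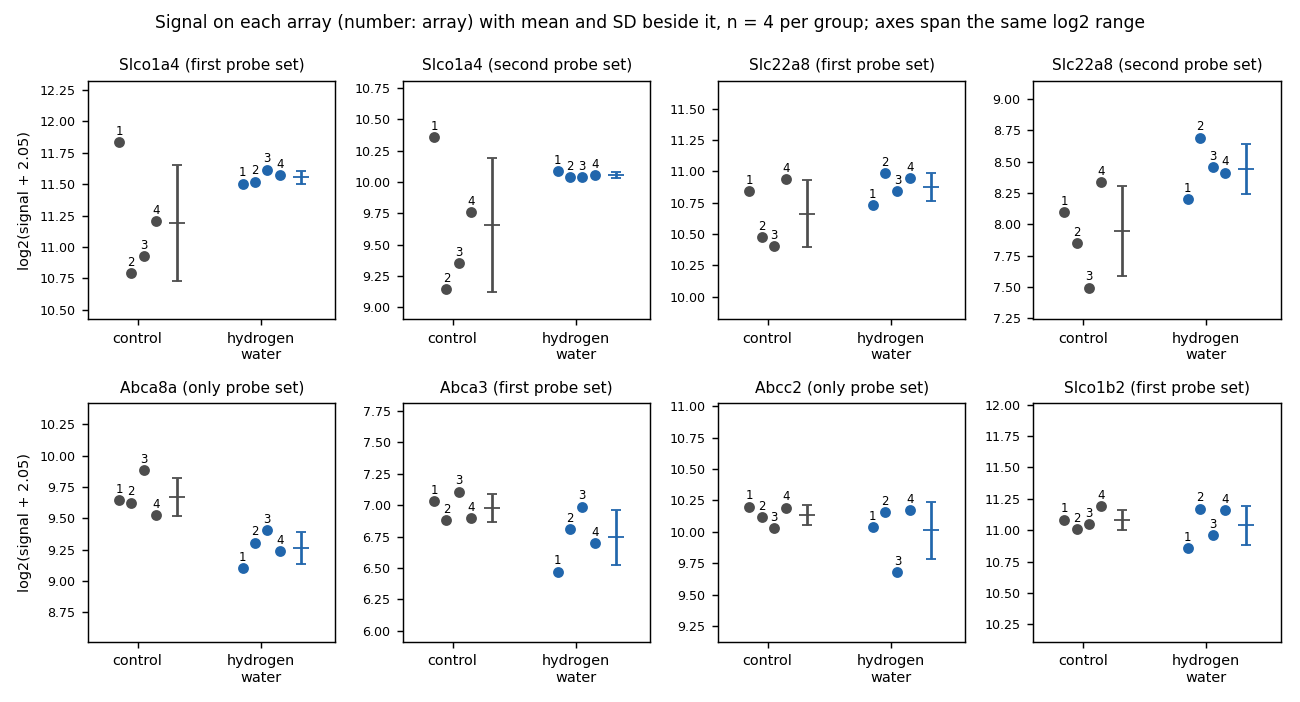
Log2(signal + 2.05) on each array for 6 transporter genes, with both tested probe sets of Slco1a4 and Slc22a8, points numbered by array and the mean with its SD (n = 4) beside them. The hydrogen water arrays of Slco1a4 sit in a narrow band at both probe sets while control array 1 lies above it and control arrays 2 to 4 below, and the Abca8a groups are apart.

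On the export side, the ABCA, ABCB, ABCC and ABCG genes were taken without Abcb6, Abcb8, Abcb9, Abcb10, Abcc8 and Abcc9, which are given further below. Of the 20 genes left, 14 passed the filter, and 0 passed the test. Abca8a, of the ABCA family of lipid transporters, had the lowest p of the tested members. Its log2 signal was 9.64, 9.62, 9.88 and 9.53 on control arrays 1 to 4 and 9.10, 9.31, 9.40 and 9.24 on hydrogen water arrays 1 to 4. Every hydrogen water array was lower than every control array. The means were 9.67 ± 0.15 and 9.26 ± 0.13 (SD, n = 4 each), a difference of −0.41 ± 0.10 (SE), or 1.33-fold lower, with an unadjusted p of 0.00172 and a limma adjusted p of 0.0893. Over 22 alternatives the difference stayed below 0, from −0.73 to −0.30, and the limma adjusted p ran from 0.0450 to 0.484. It passed without normalization alone, where the median of all probe sets was itself −0.33. With array brightness as a covariate the difference was −0.30.

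Abca8a has close relatives beside it on the chromosome. By RefSeq's gene order for GRCr8, a rat assembly, Abca8 is its direct neighbour and Abca5, which encodes a lysosomal member of the family, lies 3 coding genes further on. Abca8 differed by −0.24 ± 0.27 and Abca5 by −0.36 ± 0.28 (SE), with limma adjusted p-values of 0.797 and 0.677, and Abca5 by −0.13 without control array 3. Abca8 read 6.46, 7.12, 6.25 and 7.34 in controls and 6.32, 6.90, 6.04 and 6.94 with hydrogen water, and the groups overlapped in part. Its highest array was control array 4, where that of Abca8a was control array 3. Paralogues this similar can share probes, so the values of Abca8 and Abca8a may not be independent. Abca3, which loads lipid into lamellar bodies in lung, read 7.04, 6.88, 7.11 and 6.90 in controls and 6.47, 6.81, 6.99 and 6.70 with hydrogen water. Its difference was −0.24 ± 0.13, with −0.29 ± 0.15 (SE) at a second probe set, and neither passed.

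None of the canalicular pumps passed. Abcc2 (Mrp2), which exports bilirubin glucuronides and other conjugates into bile, read 10.20, 10.12, 10.03 and 10.19 in controls and 10.03, 10.16, 9.68 and 10.17 with hydrogen water. Hydrogen water array 3 was the lowest of the 8, and the difference was −0.12 (95% interval −0.36 to 0.12). Abcb4, the floppase that supplies phosphatidylcholine to bile, differed by −0.01 (95% interval −0.23 to 0.21), with a sign that turned under spike-in scaling. The drug pump Abcg2 (Bcrp) differed by 0.12 ± 0.18 (SE), and its sign turned without normalization. Abcb1a, a P-glycoprotein gene, had the largest difference in size among the 39 tested members and a wide spread. It read 5.68, 5.66, 6.29 and 5.42 in controls and 4.62, 5.41, 5.52 and 5.79 with hydrogen water, a difference of −0.43 ± 0.26 (SE; limma adjusted p = 0.569). The difference was −0.19 without hydrogen water array 1 and −0.25 without control array 3, and its sign turned, to 0.04, with array brightness as a covariate. Hydrogen water array 1 was the lowest and control array 3 the highest of the 8. A second Abcb1a probe set differed by −0.30 ± 0.30 (SE), with control array 3 there the lowest, so the probe sets did not share their array pattern. Abcb1b had no probe set with a single symbol and was not analysed here.

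Of the pumps that face the blood, Abcc4 (Mrp4) differed by 0.27 ± 0.23 (SE), with a sign that turned, at 0.00, without normalization, and Abcc6, whose loss causes ectopic mineralization, by −0.10 (95% interval −0.29 to 0.09). Abcc3 (Mrp3) was below the filter. The rest of the 14 tested genes of this part, Abca2, Abcc5, Abcc10 and the sterol exporter Abcg1, differed by between −0.18 and −0.03. In all, 12 of the 14 were lower with hydrogen water (85.7%, against 50.2% of all tested probe sets) and their median was −0.13. The tested ABCB and ABCC genes of the next part are not counted: Abcb6 and Abcc8 were higher, and Abcb8, Abcb10 and Abcc9 lower. These are counts of signs: 0 of these differences passed in limma, and that of Abca8a alone had an unadjusted p under 0.05.

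A separate part of 13 ABC genes was listed for roles in organelles, on ribosomes or in channels. It held Abcb6, Abcb8, Abcb9, Abcb10, Abcc8, Abcc9 and the ABCD, ABCE and ABCF genes. Of these, 11 passed the filter, 6 higher and 5 lower, with a median of 0.06. Abcb6, linked to porphyrin transport, read 7.28, 7.28, 7.43 and 7.20 in controls and 7.51, 7.24, 7.71 and 7.52 with hydrogen water. Of the hydrogen water arrays, all but array 2 exceeded every control, and the difference of 0.20 ± 0.12 (SE) did not pass (limma adjusted p = 0.552). The sign of Abcb6 turned without normalization. The mitochondrial Abcb8 differed by −0.22 ± 0.18 and Abcb10, which is needed for heme synthesis, by −0.01 ± 0.12. Abcd3, a peroxisomal carrier of fatty acyl groups and bile acid precursors, differed by 0.10 ± 0.13, with a sign that turned without normalization. Abce1, which splits ribosomes after translation, differed by −0.09 ± 0.09 and Abcf3 by −0.08 ± 0.11 (all SE), with 0.22 at a second Abcf3 probe set. Abcd4, Abcf1, Abcf2, Abcc8 and Abcc9 differed by between −0.05 and 0.12.

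The 24 genes below the filter had mean log2 signals of 2.13 to 4.40 and cannot be set apart from background, since detection calls were not used here. They were 8 Slco genes, 8 of the SLC22 and SLC47 genes and 8 ABC genes. Among them were Slc22a6, Slc22a12 and Slc22a2, carriers best known from kidney, Slco1c1, known from the brain's vessels, Slc47a1 and Abcc3. Abcg3l1, at 4.40, was the highest below the filter, and Slc22a15, at 4.51, the lowest above it. When all 31042 probe sets were tested without the filter, 108 of them passed in limma, and 0 of the 63 genes did. An unadjusted p under 0.05 was found for 2, Abca8a and Slco1c1, the latter with a limma adjusted p of 0.513. The share of all probe sets with such a p in that fit is not given here.

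Second probe sets bore on 12 of the tested genes. Of the 13 such probe sets that were tested, 0 passed in limma, and that of Slc22a8 alone had an unadjusted p under 0.05. The sign was that of the first probe set at 7 of the 13 and the opposite at 6, at Abcb10, Abcc5, Abcc9, Abcf3, Slco1b2 and Slco2a1. The genes with matching signs were Slco1a4, Slc22a8, Slc22a23, Slco2b1, Abca3 and Abcb1a, with Abcc9 matching at one of its extra probe sets.

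**Figure D3:**
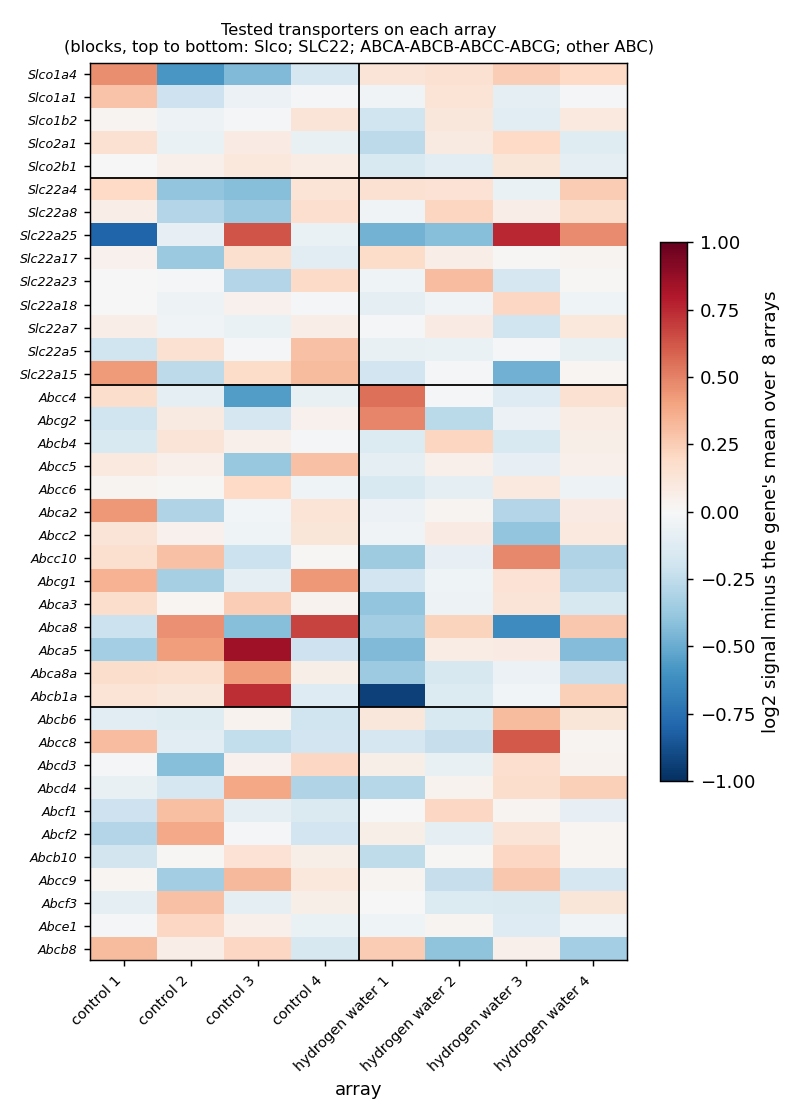
Log2 signal of each tested transporter on each of the 8 arrays, less that gene's mean over the arrays (red higher, blue lower). Genes are in 4 blocks, ordered by the difference between groups. No block changes colour as a whole at the line between groups, and hydrogen water array 1 was the lowest of the 8 for 11 of the 39 genes.

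Uptake and export were then set side by side. The 14 tested uptake genes had a median difference of 0.01, 7 higher and 7 lower, and the 25 tested export genes had a median of −0.08, 8 higher and 17 lower. The export side mixed the 14 ABCA, ABCB, ABCC and ABCG genes with the 11 ABC genes that were listed for organelle, ribosome or channel roles. This split follows neither family nor place in the cell strictly. The 11 include ABCB and ABCC genes, and the 14 include the lysosomal Abca5. The medians of these parts were −0.13 and 0.06. The median over all tested probe sets was 0.00. On single arrays, the median deviation from each gene's mean of the uptake genes ran from −0.08 to 0.07 over the control arrays and from −0.06 to 0.09 over the hydrogen water arrays, and that of the export genes from 0.01 to 0.05 and from −0.09 to 0.05. Hydrogen water arrays 1 and 2 lay below 0 for the export genes and arrays 3 and 4 above it. When the probe sets of each gene were averaged and the filter was set on genes, 31 members were tested and the export median was 0.00. The difference between the sides has no test, since the members were chosen by symbol with earlier results known.

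**Figure D4:**
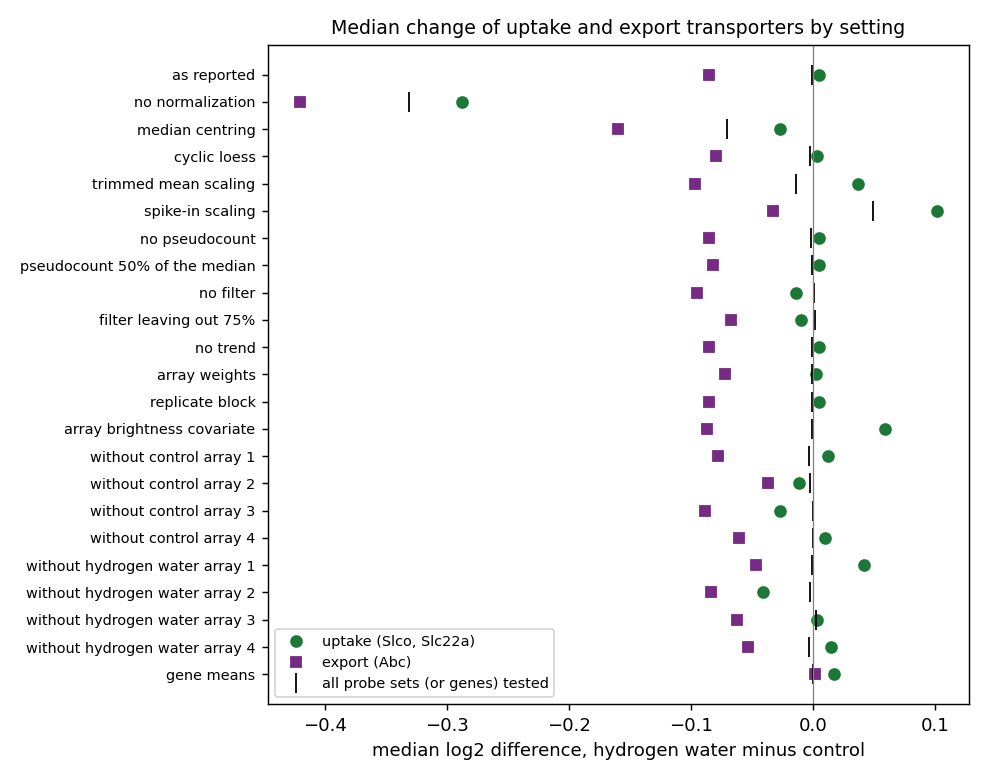
Median log2 difference, hydrogen water minus control, of the tested uptake genes (circles), the tested export genes (squares) and all probe sets or genes tested (bars) under each setting. The export genes include the organelle, ribosome and channel-subunit ABC genes. The export median lies below that of all features by between 0.03 and 0.10 in every setting shown other than gene means, where it is 0.00.

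Genes that control or partner these transporters were taken from a separate list of bile acid carriers, scaffold proteins, nuclear receptors and liver factors. Of 26 tested, 1 passed, higher, and 0 passed lower, against 0.445% and 0.374% of all tested probe sets, and 12 of the 26 had an unadjusted p under 0.05, against 12.5% of all tested probe sets. The list was drawn up with earlier results of these data known, so these shares are no test of the list as a set. The gene that passed was Nr0b2, the receptor SHP that restrains bile acid synthesis, at 1.46 ± 0.29 (SE; limma adjusted p = 0.0484). That call was lost without a filter, with a filter leaving out 75%, with no trend in the prior, with gene means, and in 6 of the 8 fits that left out 1 array (controls 1, 2 and 4, hydrogen water 1, 3 and 4). In each of these settings 0 partner genes passed. Onecut1, a liver homeodomain factor, differed by −2.73 ± 0.57, and the receptors Nr1i2 (PXR) and Nr1i3 (CAR) by 0.41 ± 0.11 and 0.45 ± 0.13 (SE), with limma adjusted p-values of 0.0577, 0.123 and 0.149. Other regulators on the list with an unadjusted p under 0.05 went both ways. Nr5a2 and Rxra differed by 0.40 ± 0.12 and 0.39 ± 0.12, and Cebpa and Nfe2l2 by −0.54 ± 0.16 and −0.36 ± 0.12 (SE). None of these passed, with limma adjusted p-values from 0.164 to 0.218. Regulators with a larger unadjusted p were Hnf4a, Nr1h4 and Nr1h3, at 0.07, 0.06 and −0.06, and Ppara, Ahr and Foxa2, at 0.58, 0.55 and −0.56. Of the ABC genes outside the set, the bile salt pump Abcb11 differed by 0.24 ± 0.10 and the sterol transporter subunits Abcg5 and Abcg8 by 0.38 ± 0.25 and 0.95 ± 0.35 (SE), without passing, and Abca1 by 0.11 ± 0.09. The bile acid uptake carrier Slc10a1 differed by 0.21 ± 0.09 and the phospholipid flippase Atp8b1 by −0.45 ± 0.17 (SE), with limma adjusted p-values of 0.372 and 0.284.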

How the data were processed

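Rat liver RNA was labelled with biotin for Affymetrix arrays, as the labels' protocols state. The deposited values are intensities on a linear scale that the authors computed by MAS5 (background subtraction and 1 summary per probe set), per the submitters' processing notes. MAS5 version, scaling target, detection calls: not given in the sources used here. The values were quantile-normalized, a pseudocount of 2.05, which is 10% of the overall median, was added, and log2 taken, so differences of dim probe sets are understated and a shift of most transcripts at once would not be seen. The 57 control probe sets and the 15521 of 31042 others below the median mean log2 signal were not tested. Groups were compared with lmFit and eBayes (trend) of limma 3.58.1 in R 4.3.3 with Benjamini-Hochberg adjustment over all 15521 tested probe sets. SE and 95% intervals of differences come from that fit. Array measures were compared by exact permutation of all 70 arrangements (smallest possible p 0.0286).

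Symbols came from the platform annotation, and all 63 matched the RefSeq table of GRCr8 by Entrez ID, with 0 changed. The members and gene lists were chosen with earlier results of these data known. Named transporters were the 5 with the lowest p in each part of the set, plus well-known liver transporters. The parts were Slco, SLC22 with SLC47, and each part of the ABC genes. The others named were added to account for every tested member. The label numbers 1 to 4 were not used to pair the arrays. Same-number correlations of deviations ran from −0.10 to 0.19, and only number 3 was the best match in both directions. These few values cannot exclude pairing by number. In a simulation built on these 15521 probe sets for this comparison (200 changed among them, drawn 10 times), the fit found 37.0% of 1.5-fold, 69.4% of 2-fold and 92.4% of 3-fold changes, and 4.54% of its calls were false.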

Additional observations from a re-analysis of the deposited data

How the results depend on the processing

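The count of transporters that passed stayed at 0 except without normalization (1, Abca8a), at an adjusted p of 0.10 (1, Abca8a) and without control array 1 (1, Slco1a4), a range of 0 to 1 over the fits that left out an array. The count over all probe sets was 505 without normalization, 64 with no trend in the prior, 12 with array brightness as a covariate, 63 with gene means, 353 at an adjusted p of 0.10, and 55 to 197 when an array was left out. The share of calls that were higher was 54.3%, but 4.16% without normalization, 29.4% with median centring, 70.8% with spike-in scaling and 16.7% with the brightness covariate. Partner genes that passed numbered 2 without normalization, with spike-in scaling and with array weights, 3 with the replicate number as a block, 0 without a filter, with a filter leaving out 75%, without a trend and with gene means, and 0 to 2 when an array was left out. The replicate block gave 178 probe sets and 0 transporters. The uptake median moved to −0.29 without normalization and 0.10 with spike-in scaling, and ran from −0.04 to 0.04 when an array was left out. The export median moved to −0.42 without normalization, −0.16 with median centring, −0.032 with spike-in scaling and 0.0021 with gene means, and ran from −0.088 to −0.037 when an array was left out. The median of all probe sets was −0.33 without normalization, −0.07 with median centring and 0.05 with spike-in scaling. The causes were not tested.

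Of 539 alternative values for the 25 named and tested transporters, 499 kept sign and side of the threshold, 2 passed anew and 38 turned sign, all at transporters that passed in neither fit. Without normalization Abcb6 was −0.15, Abcc4 −0.0018, Abcd3 −0.24, Abcg2 −0.22, Slc22a17 −0.22, Slc22a4 −0.085 and Slc22a8 −0.074. With trimmed mean scaling Slc22a7 was 0.019, Slco1a1 0.0027 and Slco2a1 0.0033. With spike-in scaling Abcb4 was 0.064, Slc22a7 0.084, Slco1a1 0.068, Slco1b2 0.065 and Slco2a1 0.068. With the brightness covariate Abcb1a was 0.041, Abcb4 0.010, Abcg2 −0.14, Slc22a7 0.045, Slco1a1 0.15, Slco1b2 0.049 and Slco2a1 0.070. Abcb4 was 0.0037 with array weights and Abcf3 0.069 with gene means. When an array was left out Abcb4 ran from −0.084 to 0.038, Abcd3 from −0.031 to 0.18, Abcg2 from −0.027 to 0.23, Slc22a7 from −0.049 to 0.052, Slco1a1 from −0.076 to 0.088, Slco1b2 from −0.090 to 0.012 and Slco2a1 from −0.12 to 0.034. With 4 arrays a group, intervals that reach past 1.5-fold, as for Abcb1a, Abca5 and Slc22a25, do not exclude such a change.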
